A study of Homo sapiens with 4 samples.

Results

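The genes described here are 9 that make, recycle or remove deoxynucleotides (dNTPs), the building blocks of DNA: RRM1, RRM2, RRM2B, TYMS, TK1, DTYMK, DCK, DUT and SAMHD1. They were chosen by symbol, and all 9 were found among the 42113 gene models of each library. Every one had a mean over the 4 libraries of at least 30 normalized counts, as did 12742 gene models in all. RNA was sequenced from A549 cells, a long-established line from a human lung cancer, after stable lentiviral infection with an shRNA (short hairpin RNA) against LIMA1 or a negative control shRNA. Whether the infected cells were a clone or a pool is not stated in the labels. Each line was left without treatment or given nutlin-3a at 10 µM, which keeps MDM2 from binding p53 and so activates endogenous p53; RNA was taken at 24 h. The 4 groups were thus untreated control shRNA, untreated LIMA1 shRNA, nutlin-3a control shRNA and nutlin-3a LIMA1 shRNA cells, with 1 library each, so no replicate error exists, no test was made, and every difference below compares libraries.

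Ribonucleotide reductase turns ribonucleotides into deoxyribonucleotides and is built from the large subunit RRM1 and a small subunit, either RRM2 or RRM2B. RRM2 serves dividing cells in S phase, while RRM2B is a p53 target that supplies dNTPs outside S phase for DNA repair and for mitochondrial DNA. Thymidine nucleotides come from synthesis by TYMS or from salvage by TK1, DCK phosphorylates other deoxynucleosides, and DUT and SAMHD1 break down dUTP and dNTPs.

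Values are normalized counts: fragments divided by 1 size factor per library and not by gene length. A difference is between log2(normalized count + 1) values, which understates the change of low genes, and a gene is called where that difference reaches 1 (higher) or -1 (lower). Libraries held 15.2 to 16.7 M fragments. For 6 genes (RRM1, RRM2, RRM2B, TK1, DTYMK and DCK) the values were whole fragments, within 0.1, in every library, and a 95% interval of the ratio of fragments is given. It covers counting error only. For TYMS, DUT and SAMHD1 some values were not whole, so no interval is given for them. LIMA1 had 416 normalized counts in untreated control and 68.3 in untreated LIMA1 shRNA cells, and 866 and 133 with nutlin-3a. The p53 target CDKN1A had 1066 and 1178 in untreated control and LIMA1 shRNA cells and 34078 and 48106 with nutlin-3a. The keratins, CDH1 and EPCAM, markers of epithelial cells, summed to between 128940 and 157161, nearly all of it KRT8 and KRT18. Within that list KRT19 was called higher with nutlin-3a in both lines, from 1278 to 3420 normalized counts in control cells. EPCAM was called lower with nutlin-3a and with LIMA1 shRNA, at 229 and 82.1 untreated and 111 and 31.1 with nutlin-3a. Markers of leukocytes, endothelium and fibroblasts summed to between 20.4 and 87.7, with CD3E at 0 in all 4 libraries. Most of that sum was the fibroblast marker COL1A1, at 70.7 and 43.5 untreated and 30.8 and 19.3 with nutlin-3a. COL1A1 was called lower with nutlin-3a in both lines, at -1.17 in control and -1.13 in LIMA1 shRNA cells.

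The stretches just upstream of the genes' start sites are shown so that the letters can be set beside the values that follow. They are given for the 3 genes with the lowest nutlin-3a differences in both lines. Shown too are 3 genes with smaller differences, of which DUT was also called lower. They are the 150 bases before the most downstream start listed in RefSeq on GRCh38.p14, 5′ to 3′ on the gene's strand, from RRM2 (chr2:10122589-10122738, plus strand), TK1 (chr17:78187053-78187202, minus), DTYMK (chr2:241686816-241686965, minus), DUT (chr15:48332047-48332196, plus), TYMS (chr18:657503-657652, plus) and SAMHD1 (chr20:36951709-36951858, minus). Capitals mark matches on either strand to the CCAAT box (CCAAT), an E2F-type site (TTTCCCGC, TTTCGCGC, TTTGCCGC or TTTGGCGC), the cell cycle homology region or CHR (TTTGAA or TTCGAA), and TTTAAA, letters that were chosen with these sequences in view. RefSeq entries were matched for 8 of the 9 genes, all but RRM2B.
RRM2: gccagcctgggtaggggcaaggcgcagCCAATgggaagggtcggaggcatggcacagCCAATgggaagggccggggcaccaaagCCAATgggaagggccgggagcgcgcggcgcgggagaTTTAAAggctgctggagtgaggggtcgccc
TK1: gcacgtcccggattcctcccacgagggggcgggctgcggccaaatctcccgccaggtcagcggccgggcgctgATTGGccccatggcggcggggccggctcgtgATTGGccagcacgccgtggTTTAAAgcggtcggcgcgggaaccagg
DTYMK: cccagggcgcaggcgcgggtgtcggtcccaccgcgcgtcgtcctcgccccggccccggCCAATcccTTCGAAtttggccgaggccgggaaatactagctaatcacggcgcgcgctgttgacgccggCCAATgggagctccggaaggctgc
DUT: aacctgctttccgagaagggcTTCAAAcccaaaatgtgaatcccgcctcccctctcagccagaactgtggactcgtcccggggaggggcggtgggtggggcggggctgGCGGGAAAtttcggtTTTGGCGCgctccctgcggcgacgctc
TYMS: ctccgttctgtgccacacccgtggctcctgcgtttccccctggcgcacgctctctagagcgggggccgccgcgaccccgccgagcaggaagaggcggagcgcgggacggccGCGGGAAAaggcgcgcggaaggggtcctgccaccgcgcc
SAMHD1: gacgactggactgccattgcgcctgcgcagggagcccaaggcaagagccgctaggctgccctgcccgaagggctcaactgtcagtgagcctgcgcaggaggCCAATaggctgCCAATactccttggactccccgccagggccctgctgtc

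RRM2 held 3 CCAAT boxes, which begin 123, 93 and 66 bases before the start, and TTTAAA 30 bases before it. TK1 held 2 CCAAT boxes, at 77 and 46 bases, and TTTAAA at 27, and DTYMK held 2 CCAAT boxes and a CHR match. Of the 35116 windows of this length listed for all genes, 23.5% held at least 1 CCAAT box, 5.97% at least 2 and 1.24% at least 3; TTTAAA was in 6.24% and a CHR match in 7.87%. SAMHD1 also held 2 CCAAT boxes, and its nutlin-3a differences of -0.54 in control and -0.81 in LIMA1 shRNA cells were not called. E2F-type letters, in 632 of all windows, were found at 2 places in DUT and 1 in TYMS, and not in the windows of RRM2, TK1 or DTYMK. DUT also held a CHR match, on the other strand. The RRM1 window held 1 CCAAT box and the DCK window none of these letters. RefSeq listed 2 windows for RRM2, 2 for TK1 and 4 for DUT, and only the most downstream was read. The shares above count every listed window. The genes shown and the letters were chosen in view of these data, so setting matches beside those shares is no test. A match is a description of the letters and was not measured as a bound site.

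With nutlin-3a in control shRNA cells, 6 of the 9 genes were lower by at least 1, RRM2B was higher, and TYMS and SAMHD1 were lower by less. Among the 12742 genes measured, 5.64% were called lower and 5.54% higher, 11.2% in all. In LIMA1 shRNA cells the same 6 genes were called lower and RRM2B again higher, against 6.08% of all genes lower and 7.29% higher, 13.4% in all. For the 6 genes with whole fragments the counting interval of the nutlin-3a difference left out 0 in both lines. It also left out 0 for 67.6% of all whole-valued genes in control and 69.6% in LIMA1 shRNA cells. The median of the 9 differences was -1.09 in control and -1.32 in LIMA1 shRNA cells, where the medians of all measured genes were -0.017 and -0.022. These 2 comparisons share no library.

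**Figure D1:**
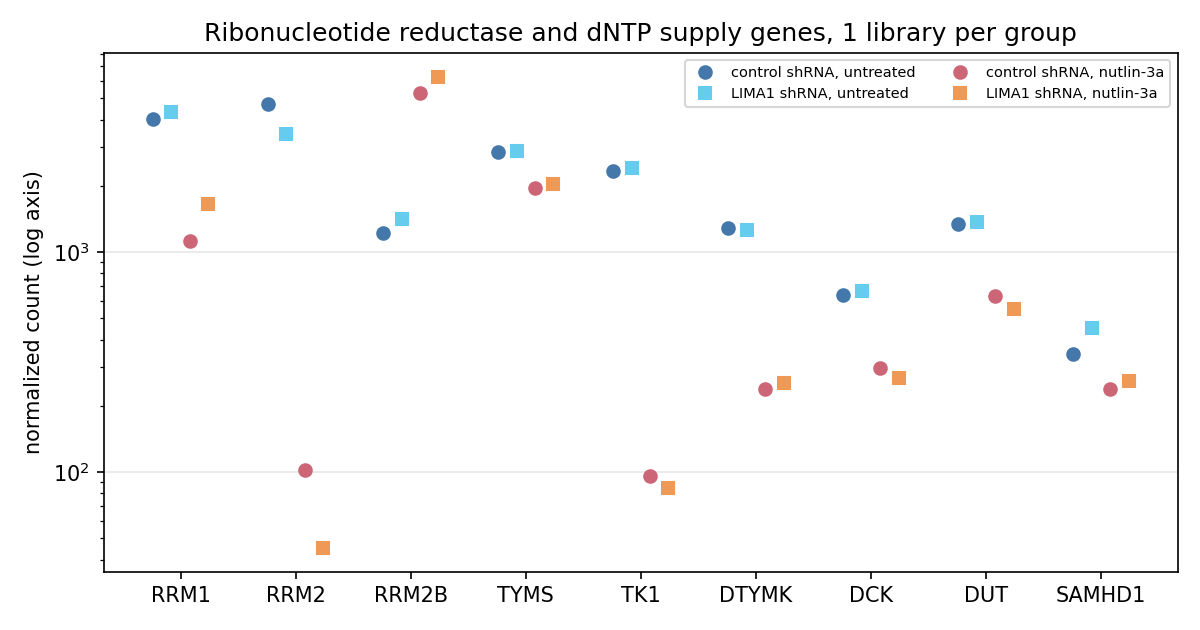
Normalized counts of the 9 genes on a log axis, with 1 point per library (circles, control shRNA; squares, LIMA1 shRNA; blue, untreated; red and orange, nutlin-3a). RRM2B is the only gene of the 9 with both nutlin-3a points above both untreated points, and RRM2 and TK1 have the lowest nutlin-3a points, between 45.0 and 102 normalized counts.

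The large subunit gene RRM1 had 4029 normalized counts in untreated control, 4357 in untreated LIMA1 shRNA, 1119 in nutlin-3a control and 1664 in nutlin-3a LIMA1 shRNA cells. Both nutlin-3a libraries were below both untreated ones. The nutlin-3a difference was -1.85 in control shRNA cells (interval -1.94 to -1.75), and that in LIMA1 shRNA cells was -1.39 (-1.47 to -1.30).

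RRM2, the small subunit of dividing cells, had 4727 normalized counts in untreated control, 3431 in untreated LIMA1 shRNA, 102 in nutlin-3a control and 45.0 in nutlin-3a LIMA1 shRNA cells. It was 46.2-fold lower with nutlin-3a in control shRNA cells (interval 38.0 to 56.8), and the LIMA1 shRNA line showed a 76.2-fold lower level (56.3 to 106). Of all measured genes, only 13 had a lower difference than RRM2 in the first comparison and 10 in the second. The low libraries rest on 103 and 42 fragments.

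RRM2B, the p53-induced small subunit, ran the other way. It had 1227 normalized counts in untreated control, 1419 in untreated LIMA1 shRNA, 5272 in nutlin-3a control and 6284 in nutlin-3a LIMA1 shRNA cells. Nutlin-3a libraries were 4.30-fold higher in control shRNA cells (4.04 to 4.57) and, with LIMA1 shRNA, 4.43-fold higher (4.18 to 4.70), and 173 and 218 genes had a higher difference.

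The small-subunit fragments thus passed from mostly RRM2 to almost all RRM2B. RRM2B made up 20.6% of the RRM2 and RRM2B fragments in untreated control (exact Clopper-Pearson 95% interval 19.6% to 21.6%), and the LIMA1 shRNA line had 29.3% (28.0% to 30.6%). With nutlin-3a its share was 98.1% in control (97.7% to 98.4%) and, with LIMA1 shRNA, 99.3% (99.0% to 99.5%). The sum of the RRM2 and RRM2B normalized counts changed far less than either gene: it was 5954 in untreated and 5374 in nutlin-3a control shRNA cells, and 4850 and 6329 in LIMA1 shRNA cells. RRM2B is the longer transcript, so shares were also taken per kb.

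Per kb of the longest coding transcript of GENCODE 29 (3076 bases for RRM1, 3673 for RRM2 and 4931 for RRM2B), RRM2 stood at 1287 in untreated control and 934 in untreated LIMA1 shRNA cells, and RRM2B at 249 and 288. With nutlin-3a RRM2 stood at 27.8 and 12.3 per kb and RRM2B at 1069 and 1274. RRM1 was at 1310 and 1416 per kb untreated and at 364 and 541 with nutlin-3a, so that RRM2B exceeded RRM1 in both nutlin-3a libraries and was below it in both untreated ones. The RRM2B share per kb was 16.2% and 23.6% untreated, and 97.5% and 99.0% with nutlin-3a. Per kb the sum of RRM2 and RRM2B was 1536 in untreated and 1097 in nutlin-3a control cells, a larger fall than in the counts. In LIMA1 shRNA cells the sums were 1222 and 1287.

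**Figure D2:**
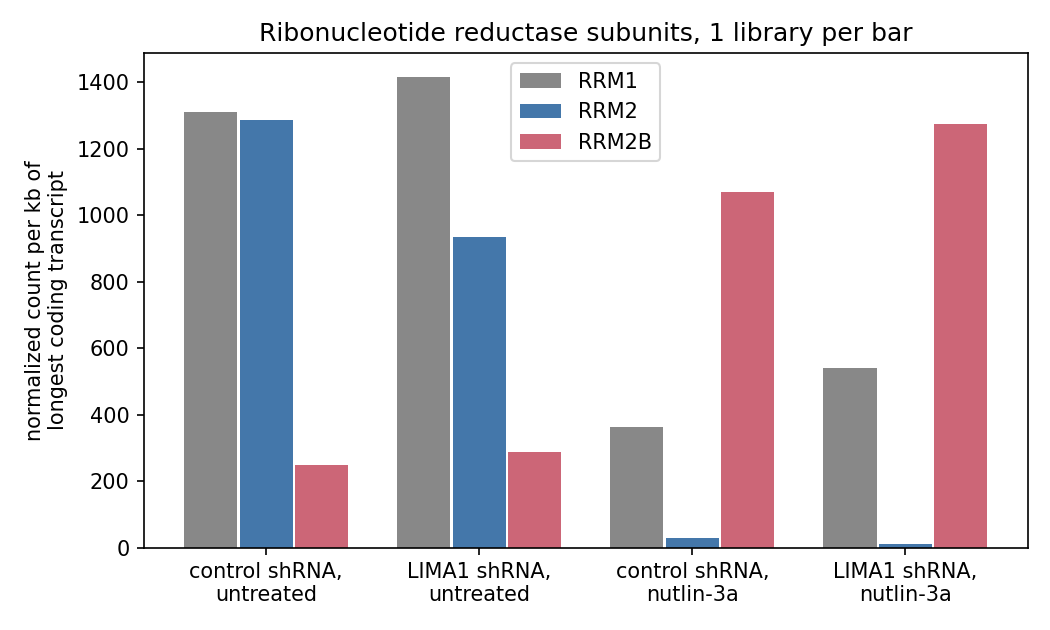
Normalized counts per kb of the longest coding transcript for RRM1 (grey), RRM2 (blue) and RRM2B (red), with 1 bar per gene and library and an axis from 0. The tallest bar is RRM1 in both untreated libraries, closely followed by RRM2 in the control cells, and RRM2B in both nutlin-3a libraries, where RRM2 is at 27.8 and 12.3.

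Set against each other per kb, TYMS was the highest of the 9 genes and SAMHD1 the lowest in both untreated libraries, at 1720 and 65.3 in control cells. RRM2B was the seventh highest untreated and the second and first highest with nutlin-3a in control and LIMA1 shRNA cells, while RRM2 became the lowest of the 9 in both. Neighbouring ranks cannot be separated without replicates. Per kb of all exons together, TK1 and not TYMS came first in untreated cells, and RRM2B came first in both nutlin-3a libraries.

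Among the thymidylate genes, TYMS, which makes dTMP from dUMP, had 2858 and 2875 normalized counts in untreated control and LIMA1 shRNA cells and 1964 and 2031 with nutlin-3a. The differences of -0.54 in control and -0.50 in LIMA1 shRNA cells were under the size for a call. In GENCODE 29 exons of TYMS overlap those of ENOSF1 and TYMSOS on the other strand, and no source used here gives the strand setting of the counting, so reads of these genes may not be separated. ENOSF1 had 576 and 666 normalized counts untreated and 452 and 505 with nutlin-3a, and TYMSOS had 43.4 and 44.5 untreated and 161 and 175 with nutlin-3a.

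TK1, the thymidine kinase of the cytosol in S phase, had 2330 and 2409 normalized counts in untreated control and LIMA1 shRNA cells and 96.3 and 84.7 with nutlin-3a. It was 24.2-fold lower in control (interval 19.8 to 29.96) and, with LIMA1 shRNA, 28.4-fold lower (22.7 to 36.0). DTYMK, the next kinase, which turns dTMP into dTDP, had 1294 and 1255 untreated and 239 and 255 with nutlin-3a. Its differences were -2.43 (-2.64 to -2.24) and -2.29 (-2.50 to -2.10), so both kinases stood further below 0 than TYMS in both lines.

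DCK, the deoxycytidine kinase that also activates nucleoside drugs such as cytarabine and gemcitabine, had 639 and 667 normalized counts untreated and 299 and 268 with nutlin-3a. The differences were -1.09 in control (interval -1.30 to -0.90) and, with LIMA1 shRNA, -1.31 (-1.53 to -1.10). In GENCODE 29 its exons overlap those of MOB1B on the same strand, which had 457 and 505 untreated and 552 and 589 with nutlin-3a. DCK was lower and MOB1B was not.

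Of the genes that remove nucleotides, DUT, which keeps dUTP out of DNA and gives TYMS its substrate, had 1338 and 1377 normalized counts untreated and 632 and 549 with nutlin-3a. Its differences were -1.08 in control and -1.32 in LIMA1 shRNA cells. The control calls of DUT and DCK were just past the threshold and were lost under upper-quartile scaling, at -0.98 and -0.995. SAMHD1, which hydrolyses dNTPs, had 346 and 454 untreated and 238 and 258 with nutlin-3a, with differences of -0.54 and -0.81 that were not called.

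**Figure D3:**
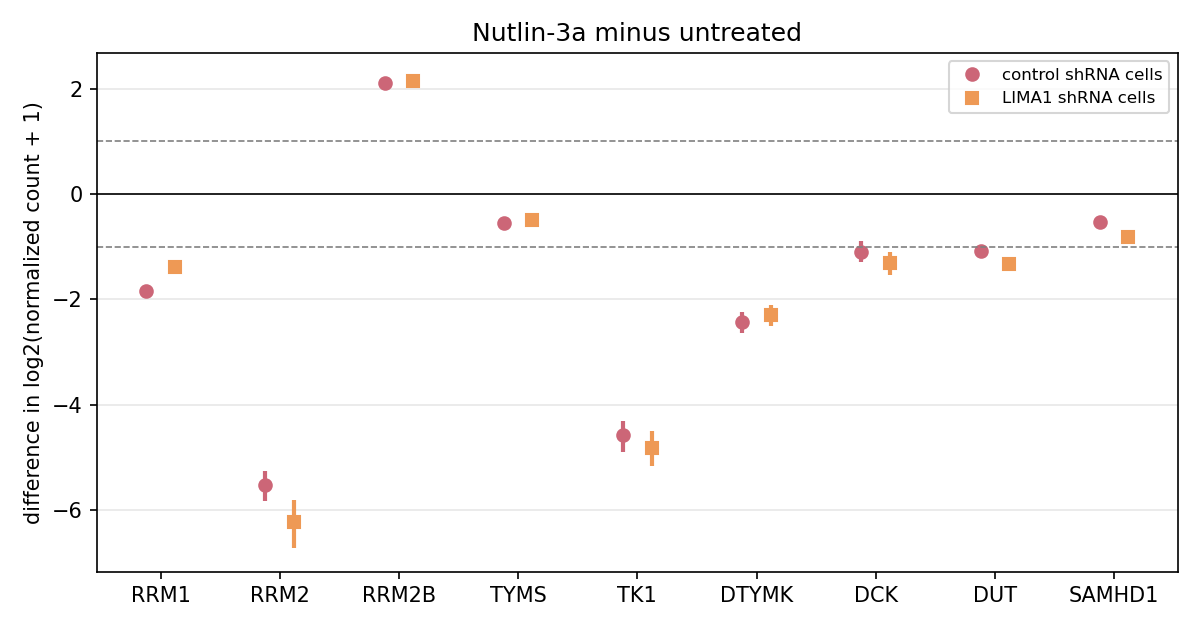
Nutlin-3a minus untreated difference in log2(normalized count + 1) for each gene in control (circles) and LIMA1 shRNA cells (squares); bars are 95% counting intervals where values were whole fragments, and dashed lines mark 1 and -1. RRM2 is lowest, then TK1 and DTYMK, and RRM2B is the only gene above 0, in both lines.

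Most markers of dividing cells were also lower with nutlin-3a. Of 10 fixed proliferation markers 9 were called lower with nutlin-3a in both lines, with medians of -4.12 and -4.36. Among all measured genes 5.64% were called lower in control and 6.08% in LIMA1 shRNA cells. The summed level of all 10 was 47840 and 47734 normalized counts untreated and 17894 and 15330 with nutlin-3a, most of the latter from PCNA; without PCNA the sums were 38114 and 39500 untreated and 2047 and 1944 with nutlin-3a. None of the 10 was at 0. The exception was PCNA, the replication clamp and a known p53 target, at 9726 and 8234 untreated and 15847 and 13386 with nutlin-3a. In bulk RNA fewer cells of a phase and less RNA per cell cannot be told apart, and the part of the proliferation markers in the dNTP gene differences was not tested.

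As a set, the other genes of nucleotide metabolism had medians smaller in size than those of the 9. Members and lists were chosen with earlier results of these data known, so this contrast is a description only. Single genes could differ more: CCNF, at -3.03 in control shRNA cells, was lower than most of the 9. Across 68 measured genes in 7 lists, 13 were called lower and 1 higher with nutlin-3a in control shRNA cells, and 15 lower and 3 higher in LIMA1 shRNA cells. Among all measured genes 5.64% were called lower and 5.54% higher in control, and 6.08% and 7.29% in LIMA1 shRNA cells. The medians of the 68 were -0.32 and -0.40.

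The folate list, whose cycle feeds TYMS and purine synthesis, had 5 of 9 genes called lower in control and 7 of 9 in LIMA1 shRNA cells. SHMT1, a serine hydroxymethyltransferase, was at -1.73 and -1.39, GGH, a folate hydrolase, at -1.48 and -1.23, and the folate carrier SLC19A1 at -1.20 and -1.22. MTHFD2, a mitochondrial folate enzyme, was at -1.01 in control and -1.85 in LIMA1 shRNA cells.

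All 12 purine synthesis genes were below 0 in both lines, with medians of -0.81 and -0.85, and 4 were called lower in control and 3 in LIMA1 shRNA cells. PAICS was at -1.19 and -1.40, PFAS at -1.08 and -1.41 and GMPS at -1.02 and -1.19; PPAT, the first committed enzyme, was called in control cells at -1.01 and stood at -0.92 in LIMA1 shRNA cells. Of 6 pyrimidine synthesis genes none was called in control cells, and CAD, which starts the pathway, was called in LIMA1 shRNA cells at -1.07 (-0.91 in control). In the salvage list 1 of 13 genes was called in each line, HPRT1, the purine salvage enzyme, at -1.22 and -1.40.

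Among 9 nucleotide kinases only AK1, an adenylate kinase whose values were not whole, was called, at 1.52 and 1.72. The removal list of 13 genes had NUDT1, which clears oxidised dNTPs, lower at -1.24 and -1.03, and ADA, adenosine deaminase, higher at 1.22 in LIMA1 shRNA cells (0.87 in control). Of 6 genes listed as reductase partners, a loose label, CCNF, the cyclin that marks RRM2 for destruction, was at -3.03 and -2.81. SLFN11, a replication stress factor placed in the same list, was at -1.59 and -2.50. GLRX, a glutaredoxin that can reduce the enzyme, was at 0.96 and, called, 1.02. The thioredoxin gene TXN, the other reductant, stood at -0.03 and -0.10.

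**Figure D4:**
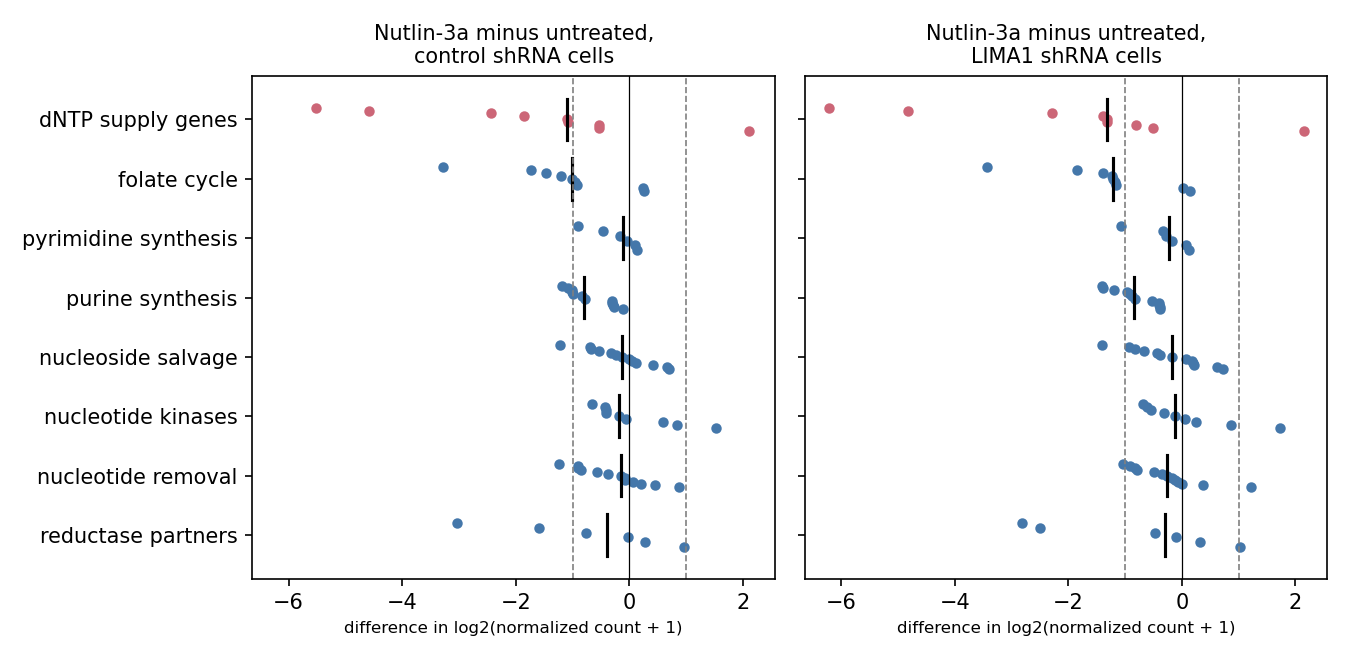
Nutlin-3a minus untreated difference in log2(normalized count + 1) for the 9 dNTP supply genes (red) and 7 lists of nucleotide metabolism (blue) in control (left) and LIMA1 shRNA cells (right); each point is a gene, black bars are medians and dashed lines mark 1 and -1. The folate and purine lists have the lowest blue medians, at -1.01 and -0.81 in control cells, and the medians of the remaining lists lie closer to 0.

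LIMA1 shRNA went with small differences in these genes. In untreated cells none of the 9 reached a difference of 1 in either direction, where 3.08% of all measured genes did (1.04% higher and 2.05% lower). With nutlin-3a only RRM2 did, on the low side, where 1.94% of all genes were called lower, 1.26% higher and 3.2% either way. The medians of the 9 were 0.05 in both treatments, beside 0.02 and 0.03 for all genes.

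RRM2 was lower with LIMA1 shRNA in both treatments. The difference was -0.46 untreated (interval -0.53 to -0.40) and -1.17 with nutlin-3a (-1.74 to -0.65), on 103 against 42 fragments. With a pseudocount of 30 in place of 1 the second was -0.82 and no longer called. RRM1 was at 0.11 untreated (0.05 to 0.17) and 0.57 with nutlin-3a (0.46 to 0.68), and RRM2B at 0.21 (0.10 to 0.32) and 0.25 (0.20 to 0.31).

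The intervals of the 3 reductase genes thus left out 0 in both treatments, and those of TK1, DTYMK and DCK spanned 0 in both. Counting error is small at this depth: the interval left out 0 for 45.6% of 10449 whole-valued genes in untreated cells and 43.8% of 10456 with nutlin-3a, so 3 of 6 is near the background. TK1 was at 0.05 untreated and -0.18 with nutlin-3a (-0.63 to 0.26), DTYMK at -0.04 and 0.09, and DCK at 0.06 and -0.16. TYMS was at 0.01 and 0.05, DUT at 0.04 and -0.20 and SAMHD1 at 0.39 and 0.12. Among the pathway lists, AK4, a mitochondrial adenylate kinase, was called lower in both treatments, at -1.08 and -1.18, and SLFN11 with nutlin-3a, at -1.21.

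**Figure D5:**
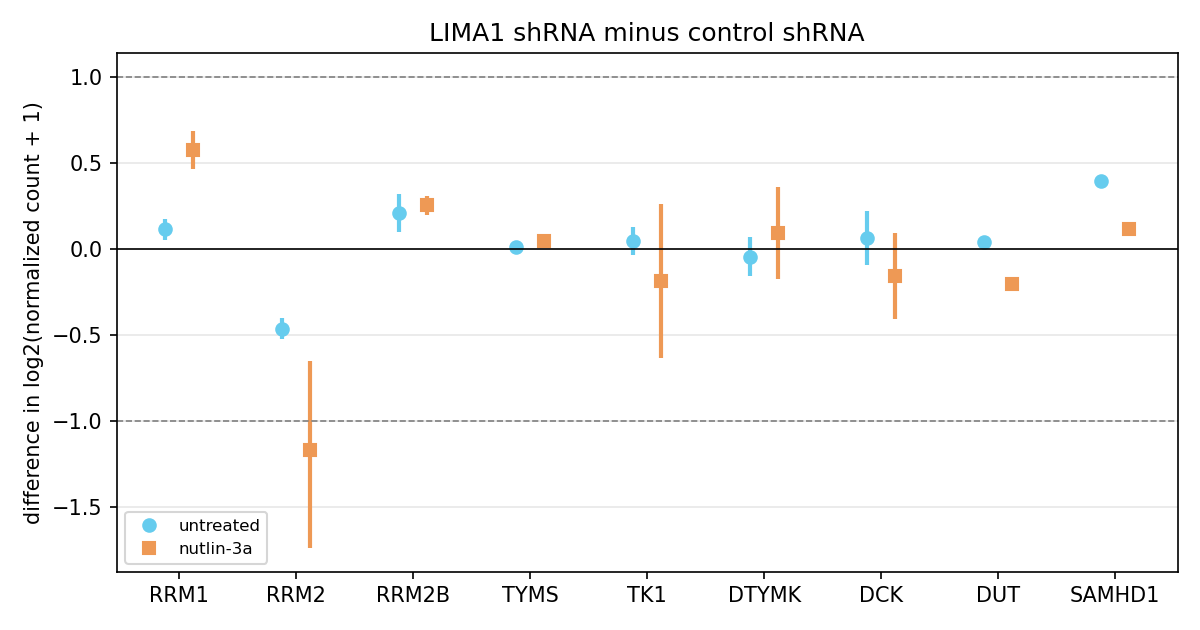
LIMA1 shRNA minus control shRNA difference in log2(normalized count + 1) for each gene, untreated (circles) and with nutlin-3a (squares); bars are 95% counting intervals where values were whole fragments, and dashed lines mark 1 and -1. RRM2 is below 0 and RRM1 and RRM2B are above 0 in both treatments, and only RRM2 with nutlin-3a passes -1.

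The study asked how LIMA1 knockdown alters gene activation by p53. For these 9 genes the nutlin-3a difference of the control line was therefore subtracted from that of the LIMA1 shRNA line. None of the 9 reached a difference of 1, where 2.09% of all measured genes did (1.27% higher and 0.816% lower). For RRM2B, the p53 target, the response difference was 0.04 (counting interval from the summed Poisson variance -0.08 to 0.16). The response difference of RRM1 was 0.46 (0.33 to 0.59), its nutlin-3a difference being nearer 0 with LIMA1 shRNA, and that of RRM2 was -0.70 (-1.24 to -0.20; -0.36 with a pseudocount of 30). TK1 was at -0.23 (-0.67 to 0.20), DCK at -0.22 (-0.51 to 0.07) and DTYMK at 0.14 (-0.14 to 0.42). Among 10449 whole-valued genes this interval left out 0 for 21.8%. TYMS was at 0.04, DUT at -0.24 and SAMHD1 at -0.28.

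Over the 4 libraries, the genes whose centred log2 values lay nearest to those of RRM2 among 10005 genes with a mean of at least 150 were E2F8, FAM111B and CENPA, at Euclidean distances of 0.32, 0.38 and 0.41. All 3 were near the floor with nutlin-3a, at 2.14 to 14.9 normalized counts, and passed that minimum through the untreated libraries, so the size of their differences depends on the pseudocount. The nutlin-3a differences were -5.31, -5.70 and -5.44 in control and -6.62, -6.72 and -5.99 in LIMA1 shRNA cells. Nearest to RRM2B were SLC43A2, NINJ1 and NADSYN1, at 0.09, 0.11 and 0.13. They were higher with nutlin-3a by 2.02, 2.02 and 2.11 in control and by 2.24, 2.17 and 2.199 in LIMA1 shRNA cells. With 4 values a gene, such likeness is a description only.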

How the data were processed

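Gene expression was read from 4 RNA-seq libraries, 1 per group, grouped by title. The titles say si and the protocols shRNA, and the value column of nutlin-3a LIMA1 shRNA cells is headed with EPLIN, a synonym for LIMA1. The submitters' processing notes name hg19, bcl2fastq 1.8.3, Bowtie2 2.0.12 and Cuffnorm 2.2.1, with no role; which annotation was used is not given in the sources. Each deposited file holds a signal for every gene model, which its values show to be fragments divided by 1 size factor per library. Between 0.5 and 1000 fragments, 85.5% to 86.3% of values were whole within 0.1, too few for a count test. Differences used a pseudocount of 1, a minimum mean of 30 and a call size of 1 (log2), and the calling step was tested on simulated data. Ratio intervals are exact Clopper-Pearson intervals of fragments; reads carry no molecular identifiers, so they cover counting error only. Other genes were named where called, up to 4 per list and comparison. A gene that this rule names is not reported here. PCNA, KRT8, KRT18, KRT19, EPCAM, CD3E, COL1A1, TXN, TYMSOS and MOB1B are named outside this rule and were chosen after their values were seen. RRM2 and RRM2B each got their 3 nearest genes. Members, lists and settings were chosen with earlier results of these data known. Lengths and overlaps came from GENCODE 29 on GRCh38, another build than the files', and promoters from RefSeq. Python 3.11.15, numpy 2.4.6, pandas 2.3.3, scipy 1.17.1 and matplotlib 3.10.9 were used.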

Additional observations from a re-analysis of the deposited data

Results flagged for a closer look

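PAICS, a purine synthesis gene, lay on opposite sides of 0 in the LIMA1 shRNA comparisons. It was at 0.12 in untreated cells (counting interval 0.06 to 0.17) and -0.09 with nutlin-3a (-0.18 to -0.00097), a gap of -0.21. The gap was not tested, since there is 1 library per group. The search covered the members and named genes with whole values. Among all whole-valued genes such an interval left out 0 for 45.6% in untreated cells and 43.8% with nutlin-3a.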

How the results depend on the processing

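Of 75 recomputed differences of the called genes under other pseudocounts and scalings, all 75 kept their sign and 72 stayed past 1; the 3 that did not were DCK (-0.995) and DUT (-0.98) with nutlin-3a in control cells under upper-quartile scaling, and RRM2 (-0.82) with LIMA1 shRNA under nutlin-3a with a pseudocount of 30. No uncalled difference of the 9 genes became called in 150 recomputations, and 3 of them, all of size 0.05 or less, changed sign under equal totals. A call size of 2 left 4 of the 9 genes called with nutlin-3a in each line (7 before), where 3.99% of all genes were called in control and 4.30% in LIMA1 shRNA cells, and 0 with LIMA1 shRNA under nutlin-3a (1 before), as did a pseudocount of 30 there; a call size of log2 1.5 gave 1 response difference in place of 0, with 6.67% of all genes called. In the pathway lists a pseudocount of 30 left 0 genes called (1 before) with LIMA1 shRNA in untreated cells and 1 (2 before) with nutlin-3a. Per kb of the longest transcript the RRM2B share was 16.2%, 23.6% and 97.5% in untreated control, untreated LIMA1 shRNA and nutlin-3a control cells. Leaving out the 3 genes without whole values, an alternative chosen after seeing the data, stayed within 1.5 times of each count. Of 225 recomputed differences of the 9 genes, 10 moved by more than the counting error. With a pseudocount of 30 the nutlin-3a difference of RRM2 was -5.17 in control and -5.53 in LIMA1 shRNA cells (-5.52 and -6.22 before). That of TK1 was -4.22 and -4.41 (-4.58 and -4.81 before). The other moves were of RRM1, RRM2B and TYMS with nutlin-3a under upper-quartile scaling. Scalings moved the median of all genes by at most 0.099. No paired analysis was possible because each group has 1 library. Depth limits RRM2 and TK1 with nutlin-3a, at 103 and 42 fragments for RRM2 and 97 and 79 for TK1.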
